A study of Mus musculus with 10 samples.

Results

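The genes examined here are 8 complement components, taken by name from a table of 13809 genes: C1qa, C1qb, C1qc, C2, C4b, C3, Cfb and Cfp. All 8 were present and all 8 entered the tests. RNA-seq was made from mouse bone marrow macrophages of 2 origins, each treated with LPS (lipopolysaccharide, a bacterial cell wall product sensed by TLR4) or left untreated. All mice were C57BL/6 at 12 weeks after birth. The 4 groups were resident macrophages given 1 µg/ml LPS for 4 h (3 libraries), untreated resident macrophages (3 libraries), bone marrow derived macrophages (BMDM) given the same LPS dose and time (2 libraries), and untreated BMDM (2 libraries). The resident cells, labelled CD163+, are the ferromagnetic cells that a magnetic column held back from unstained marrow, so no antibody chose them. The BMDM, labelled CD163-, were grown out of the flow-through with 20% L929 cell supernatant, a source of the growth factor CSF1, for 6 days by the protocol and 7 days by the library titles.

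Complement is a cascade of plasma and tissue proteins that tags microbes and dying cells for uptake. In the classical pathway, C1q binds the target and C1r and C1s then cleave C4 and C2, whose fragments form an enzyme that cleaves C3. In the alternative pathway, C3b and factor B form such an enzyme on the surface itself, and properdin stabilizes it. Most complement proteins in plasma come from the liver, but C1q comes mainly from macrophages and related cells, and properdin from leukocytes.

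The resident libraries carried their labelled marker, Cd163, at 6476, 4131 and 4918 normalized reads after LPS and at 10740, 5282 and 6487 without it. In BMDM, Cd163 stood at 14.4 and 14.9 after LPS and at 41.9 and 53.9 without it, so the marker separated the origins in all 10 libraries. Each library held 27091734 to 37701333 recovered reads, and libraries of 1 group correlated at r = 0.982 to 0.995. The labels do not say whether libraries of a group are separate animals or cultures, and the spread behind each p-value may thus be technical. Replicates are numbered in the order of the deposit, which pairs no libraries. Resident replicate 1 of either treatment stood apart: Y-linked genes were read in those 2 libraries alone, and their Xist values of 2172 and 1651 lay below the 7873 to 13871 of the other libraries. Some of the results that rest on them are given with and without them, and the others with them only.

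The resident libraries also held transcripts of other marrow cells. The summed neutrophil list took 1.21% to 1.43% of the LPS-treated and 0.759% to 1.56% of the untreated resident libraries, against 0.00869% to 0.00925% of LPS-treated and 0.008% to 0.00802% of untreated BMDM libraries. In untreated cells, all 14 neutrophil, 10 stroma, 8 B-lineage, 7 measured erythroid and 6 megakaryocyte markers were called higher in resident cells than in BMDM. The same held for 7 of 8 dendritic cell, 6 of 8 monocyte and 6 of 7 measured T and NK cell markers. It also held for 6 of 7 eosinophil, basophil and mast cell markers. A call here is a limma adjusted p under 0.05. Of all genes tested, 39.2% were called higher and 32.6% lower in this comparison. Of the 12 macrophage identity genes (Csf1r, Adgre1, Cd68 and others), 4 were called higher and 7 lower in untreated resident cells than in BMDM. All 10 island macrophage genes (Spic, Vcam1, Siglec1 and others) were called higher. In such bulk samples, fewer cells of a type and less RNA per cell cannot be told apart.

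C1qa, C1qc and C1qb lie side by side on the minus strand of chr4 (GRCm38): C1qa at chr4:136895917-136898803, C1qc at chr4:136889804-136893065 and C1qb at chr4:136880129-136886187. C4b (chr17:34728380-34743882), Cfb (chr17:34856374-34862518) and C2 (chr17:34862604-34898265) share the major histocompatibility region of chr17, C3 lies apart at chr17:57203970-57228136, and Cfp lies at chrX:20925454-20931555. Shown here are the 250 bases before the RefSeq gene start for C1qb, C1qc and C3. C1qb had at least 24745 and C1qc at least 16567 normalized reads in every library, while C3 was called higher after LPS in both origins. RefSeq promoter entries (GRCm38.p6) matched 4 of the 8 genes, namely C1qb, C1qc, C3 and Cfp. The C1qb window is chr4:136886201-136886450, the C1qc window chr4:136892915-136893164 and the C3 window chr17:57228137-57228386, all on the minus strand and written 5′ to 3′. Capitals mark a PU.1 core (AGGAAGT or its reverse complement) in C1qb and C1qc, an NF-kB motif nearer the start in C1qc, and a C/EBP motif (TTGCNNAAT) in C3.
C1qb: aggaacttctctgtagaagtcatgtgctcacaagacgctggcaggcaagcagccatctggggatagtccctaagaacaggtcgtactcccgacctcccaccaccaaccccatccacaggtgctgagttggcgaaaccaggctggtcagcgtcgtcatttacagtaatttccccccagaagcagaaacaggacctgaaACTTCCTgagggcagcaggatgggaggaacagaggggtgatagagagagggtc
C1qc: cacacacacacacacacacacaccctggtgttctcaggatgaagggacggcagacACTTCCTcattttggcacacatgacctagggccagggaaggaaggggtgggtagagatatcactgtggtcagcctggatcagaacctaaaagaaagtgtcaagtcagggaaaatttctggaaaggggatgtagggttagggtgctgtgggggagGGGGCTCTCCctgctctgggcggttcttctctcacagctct
C3: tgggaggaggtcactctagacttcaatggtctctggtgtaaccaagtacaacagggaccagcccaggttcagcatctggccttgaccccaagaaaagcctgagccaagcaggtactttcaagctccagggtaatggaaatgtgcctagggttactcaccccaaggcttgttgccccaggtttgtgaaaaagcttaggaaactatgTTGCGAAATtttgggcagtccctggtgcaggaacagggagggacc

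Counting back from the RefSeq gene start, the PU.1 core begins at position -53 in C1qb and -195 in C1qc, the NF-kB motif at -41 in C1qc and the C/EBP motif at -45 in C3. For C1qc the RefSeq start lies inside the gene as GENCODE places it, which begins at 136893065 on the minus strand. The NF-kB motif of C1qc thus falls within that GENCODE gene, and its PU.1 core falls before it. PU.1 is the factor that sets myeloid identity, and NF-kB and C/EBP factors act in inflammatory transcription. On either strand, the PU.1 core was present in 7.69%, the NF-kB motif in 7.25% and the C/EBP motif in 2.11% of 32851 windows of the same length. Also searched were an interferon response element (2.98% of windows), a GAS motif (TTCNNNGAA, 7.02%) and AP-1 (TGANTCA, 6.75%), none of which was in the C1qb, C1qc, C3 or Cfp window. The Cfp window held none of the 6 motifs. The motif letters were chosen with these windows in view, and a match describes the letters alone.

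**Figure D1:**
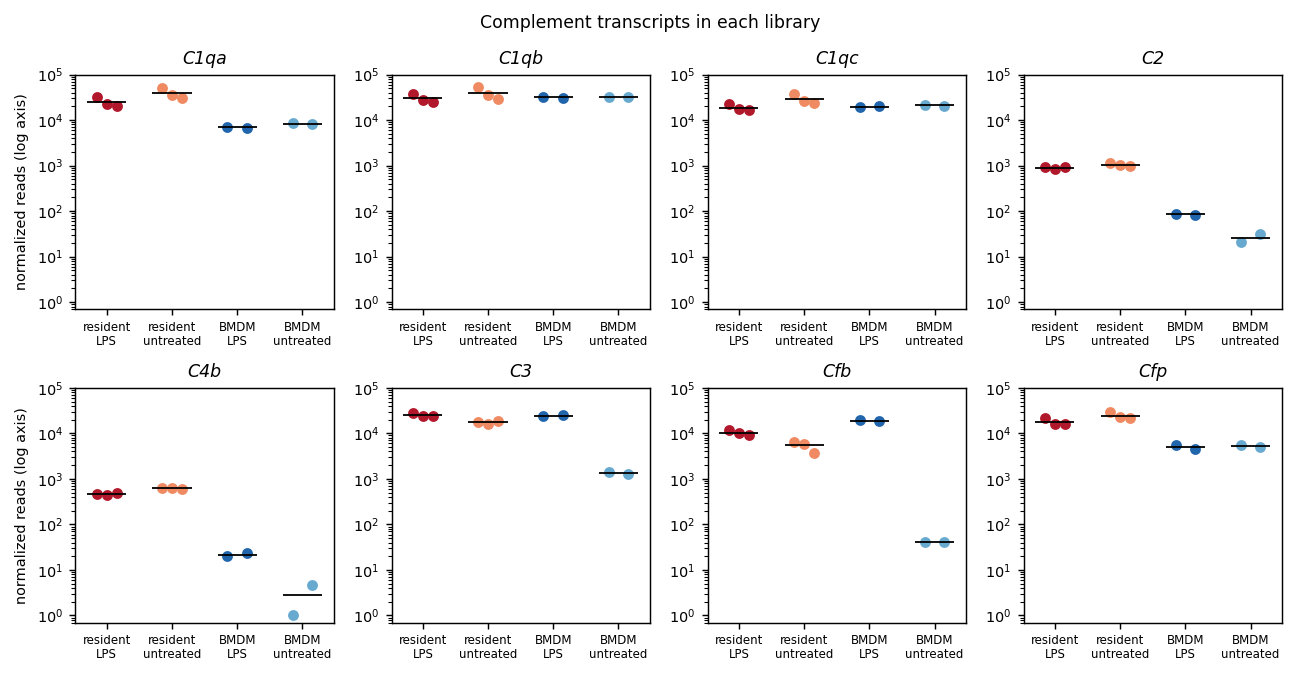
Normalized reads (log axis) of the 8 complement genes in each library, 1 point a library and a bar at the group mean. C1qb lies within about the same range in all 4 groups. C1qc reads 23163 to 36893 in untreated resident cells and at most 22678 in the other groups. C1qa and Cfp are lower in BMDM whatever the treatment. C3 and Cfb are low only in untreated BMDM, where C3 reads 1449 and 1296 and Cfb 41.9 and 40.2.

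C1q is built from 3 related chains, A, B and C, which C1qa, C1qb and C1qc encode. C1qa had 32217, 22161 and 20383 normalized reads in resident cells given LPS, against 49791, 35278 and 30991 in untreated resident cells. It had 7021 and 6820 in LPS-treated BMDM, against 8438 and 8345 in untreated BMDM. Every resident library thus lay above every BMDM library, and the resident groups overlapped each other. C1qa was higher in resident cells than in BMDM by 2.18 ± 0.22 (SE) on the log2 scale without LPS (4.52-fold, limma adjusted p = 8.85e-06) and by 1.82 ± 0.22 with it (3.53-fold, adjusted p = 3.43e-05), in all 21 alternatives of each comparison.

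C1qb gave 37772, 26909 and 24745 normalized reads in LPS-treated and 52039, 35989 and 29495 in untreated resident cells. In BMDM it gave 31948 and 30948 after LPS and 31372 and 31335 without it. The BMDM values fell inside the range of the resident ones under either treatment. The resident minus BMDM difference was -0.10 (95% interval -0.63 to 0.42) with LPS and 0.28 (-0.24 to 0.80) without it, and neither was called.

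C1qc stood at 22678, 17164 and 16567 in LPS-treated and at 36893, 25614 and 23163 in untreated resident cells. BMDM held 19660 and 19927 after LPS and 21876 and 20356 without it. Untreated resident libraries lay just above untreated BMDM, while the LPS-treated groups overlapped. The difference between origins was -0.09 (95% interval -0.52 to 0.35) with LPS and 0.41 (-0.03 to 0.84) without it. Neither was called in the fit of 4 group means. Without the libraries that held Y-linked reads, C1qc was called higher in untreated resident cells (0.21, adjusted p = 0.0334), and under LPS C1qb (-0.29, adjusted p = 0.0301) and C1qc (-0.23, adjusted p = 0.0207) were called lower in resident cells. The LPS differences of C1qb and C1qc turned to 0.21 and 0.25 with quantile normalization.

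The share of the A chain transcript therefore differed between origins. The ratio of C1qa to C1qb reads was 0.853, 0.824 and 0.824 in resident cells given LPS and 0.957, 0.980 and 1.05 in untreated ones. In BMDM it was 0.220 in both LPS-treated libraries and 0.269 and 0.266 in the untreated ones. No resident library came near a BMDM library in this ratio, which does not change with the scaling of a library. The ratio was 3.75-fold higher in resident cells (1.91 on the log2 scale, exact permutation test within treatments, 2-sided, p = 0.01, the smallest this design allows). Without the 2 libraries with Y-linked reads the difference was again 1.91 (exact permutation p = 0.0556).

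The ratio of C1qc to C1qb, by contrast, was 0.636 ± 0.0346 in LPS-treated and 0.735 ± 0.0433 in untreated resident cells (SD, n = 3 each), and 0.630 ± 0.0202 in LPS-treated and 0.673 ± 0.0337 in untreated BMDM (SD, n = 2 each). The origins overlapped, with a difference of 0.07 (exact permutation p = 0.21). Between LPS-treated and untreated libraries the log2 ratio of C1qa to C1qb differed by -0.26 in resident cells (exact permutation p = 0.1) and by -0.28 in BMDM (exact permutation p = 0.333), with no overlap between LPS-treated and untreated libraries of either origin. The ratio of C1qc to C1qb differed by -0.21 in resident cells (exact permutation p = 0.1) and -0.10 in BMDM (exact permutation p = 0.333), also without overlap. These p-values are the smallest that 3 against 3 and 2 against 2 libraries allow. The comparison of the ratios between treatments was added after the values were seen.

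**Figure D2:**
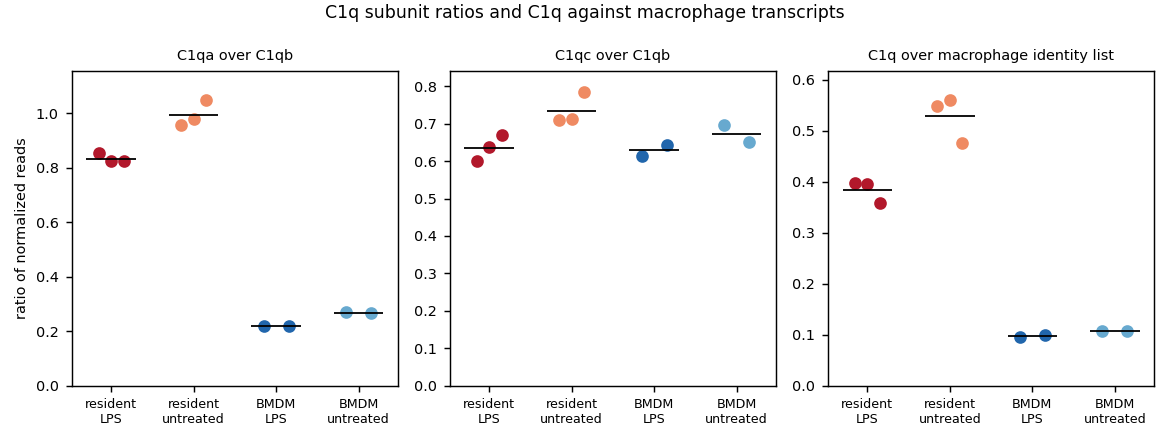
Ratios of normalized reads in each library (points) with the group mean (bar): C1qa over C1qb, C1qc over C1qb, and the 3 C1q genes summed over the summed macrophage identity list. Resident libraries lie at 0.824 to 1.05 and BMDM at 0.220 to 0.269 in the first panel, while the origins overlap in the second.

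In the fit of 4 group means no C1q gene passed the threshold for LPS. In resident cells the log2 change was -0.63 ± 0.19 for C1qa (SE, adjusted p = 0.0594), -0.38 ± 0.21 for C1qb (adjusted p = 0.284) and -0.59 ± 0.18 for C1qc (adjusted p = 0.0535). Quantile normalization gave -1.0, -0.77 and -0.84, all called, and equal totals -0.76, -0.50 and -0.71, with C1qa and C1qc called. Resident replicate 1 was the highest of its group for all 3 genes under either treatment. With a term for the libraries with Y-linked reads, the same changes were called for C1qa (adjusted p = 0.000128), C1qb (0.00851) and C1qc (0.000236). Without those 2 libraries they were -0.64 for C1qa (adjusted p = 0.00143), -0.34 for C1qb (0.0494) and -0.53 for C1qc (0.00259). Between the 2 libraries with Y-linked reads, 1 a treatment, the changes were -0.63, -0.46 and -0.70 for C1qa, C1qb and C1qc.

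In BMDM the changes with LPS were -0.28 (95% interval -0.81 to 0.25) for C1qa, 0.00 (-0.57 to 0.58) for C1qb and -0.09 (-0.57 to 0.39) for C1qc. None was called in the fit of 4 group means. The change of C1qa, whose groups did not overlap, was called at the same size without the resident libraries that held Y-linked reads (-0.28, adjusted p = 0.0123) and with the BMDM libraries fitted alone (-0.28, adjusted p = 0.0026). LPS-treated BMDM libraries had the largest deposited totals, 38767247 and 38601861 normalized reads, against 24696867 and 25958567 in untreated BMDM. Set to equal totals, which moved the median of all genes to -0.64, the 3 C1q changes became -0.89, -0.61 and -0.70 and were called, but lay -0.25, 0.03 and -0.06 from that median. Quantile normalization, with a median of -0.21, gave -1.11, -0.91 and -0.91, also called.

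Set against other macrophage transcripts of the same library, the summed C1q reads were 0.384 ± 0.0215 of the macrophage identity sum in LPS-treated and 0.528 ± 0.0447 in untreated resident cells (SD, n = 3 each). In BMDM they were 0.0973 ± 0.00267 after LPS and 0.108 ± 0.000533 without it (SD, n = 2 each). LPS-treated and untreated libraries did not overlap in either origin, with log2 differences of -0.46 in resident cells (exact permutation p = 0.1) and -0.15 in BMDM (exact permutation p = 0.333), again the smallest p possible. In BMDM most of the identity sum was Lyz2, at a mean of 340820 after LPS and 383760 without it. The whole sum was 581400 to 614170 and 555080 to 574340 there. In resident cells Lyz2 averaged 51303 after LPS and 57548 without it, of sums of 167260 to 233570 and 173010 to 253110. The part of Lyz2 in these ratios was not tested. The sizes depended on the divisor. Over Csf1r alone the log2 difference was -0.19 in resident cells, where the treatments overlapped, and 0.46 in BMDM, with ratios of 5.40 after LPS and 6.14 without it in resident cells and of 1.38 and 1.01 in BMDM. Over the island macrophage list it was -0.10 in resident cells, again with overlap, and -0.64 in BMDM. The order of the origins also turned with that list, to ratios of 0.226 in LPS-treated and 0.240 in untreated resident cells, against 1.5 in LPS-treated and 2.33 in untreated BMDM. Of the macrophage identity list, 4 of 12 genes were called lower and none higher with LPS in resident cells. In BMDM 6 were called higher and 2 lower. Of the island macrophage list, 4 of 10 genes were called lower and none higher in resident cells. In BMDM 5 were called higher and 4 lower. Of all genes, 7.36% were called higher and 5.57% lower in resident cells, and 28.3% and 29.5% in BMDM. The part of the shifts in these 2 lists in the C1q values was not tested.

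C4b and C2 supply the classical C3-cleaving enzyme once C1 is active. C4b had 463, 443 and 494 normalized reads in LPS-treated and 633, 643 and 614 in untreated resident cells. In BMDM it had 20.6 and 23.0 after LPS, whereas the untreated libraries stood at the table's floor of 1 and at 4.57. The value of 4.57 is 5 reads. The floor can stand for 0 or 1 read, since 1 read was worth 0.912 in that library. Resident cells were far above BMDM under both treatments, and the 4 groups did not overlap. C4b was called higher in resident cells with LPS (4.36 ± 0.34, adjusted p = 1.51e-06) and without it (7.56 ± 0.34, adjusted p = 2.2e-08). It rose with LPS in BMDM, on 37 reads against 5 over both libraries with the floor counted as 0 (2.77 ± 0.37, adjusted p = 1e-04). The sizes in BMDM depend on the pseudocount: the LPS change was 3.27 with 0.1 added and 1.33 with 10. It was 2.03 without BMDM untreated replicate 1, the library at the floor, and 3.51 without replicate 2, and was called in both. In resident cells the LPS change of -0.43 ± 0.30 was not called (adjusted p = 0.409), although the groups did not overlap. Fitted to the recovered reads with limma's voom, an alternative chosen after seeing the data, it was called (adjusted p = 0.0348).

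C4a, a near-identical neighbouring copy of C4b (chr17:34809092-34823464), stood between 14.6 and 31.1 in all 10 libraries. How reads shared by the 2 copies were assigned is not given in the sources used here, so both are uncertain, above all in BMDM.

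C2 had 916, 847 and 915 normalized reads in LPS-treated and 1155, 1021 and 966 in untreated resident cells. It had 87.4 and 84.0 in LPS-treated BMDM, against 21.0 and 31.1 in untreated BMDM. The groups stood in the order untreated resident, LPS-treated resident, LPS-treated BMDM and untreated BMDM, with no overlap. C2 was higher in resident cells by 3.36 ± 0.16 with LPS (10.3-fold, adjusted p = 5.53e-08) and by 5.30 ± 0.16 without it (39.4-fold, adjusted p = 1.59e-09). LPS raised it in BMDM by 1.71 ± 0.18 (3.27-fold, adjusted p = 1.46e-05), while the resident change was -0.23 ± 0.14 (adjusted p = 0.357). The annotation puts Gm20547 across C2 and Cfb on the same strand and Zbtb12 within C2 on the other, and whether counting used strand is not given in the sources used here.

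Stroma transcripts, which include fibroblast and endothelial ones, summed to 11763 to 13739 in LPS-treated and 10149 to 13259 in untreated resident cells, against 1050 to 1104 in LPS-treated and 521 to 593 in untreated BMDM. The stroma markers at the floor numbered 3 of 10 in each untreated BMDM library, at most 1 in LPS-treated BMDM and none in resident libraries. Their part in the C2 and C4b differences was not tested.

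C3 is the protein on which all complement pathways converge. It had 27537, 24368 and 23695 normalized reads in LPS-treated and 17337, 16364 and 18712 in untreated resident cells. LPS-treated BMDM held 23860 and 25085, against 1449 and 1296 in untreated BMDM. After LPS the origins overlapped, and without it the resident libraries lay more than 10-fold above BMDM. C3 rose with LPS in both origins, by 0.53 ± 0.09 in resident cells (1.44-fold, adjusted p = 0.00508) and by 4.16 ± 0.11 in BMDM (17.8-fold, adjusted p = 6.64e-10). The resident minus BMDM difference was 3.67 ± 0.10 without LPS (12.7-fold, adjusted p = 9.64e-10) and 0.04 with it (95% interval -0.18 to 0.26). The resident rise was not called with quantile normalization (0.37, adjusted p = 0.0526) or with the resident libraries fitted alone (0.53, adjusted p = 0.0532). The LPS-treated origins differed by -0.03 without the libraries with Y-linked reads, and were called apart in 2 alternatives. These were equal totals (0.36, adjusted p = 0.0119, beside a median of all genes of 0.35) and quantile normalization (0.38, adjusted p = 0.0193, beside a median of -0.09).

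Cfb encodes factor B, which gives the alternative pathway enzyme its protease. It had 12051, 10160 and 8981 normalized reads in LPS-treated resident cells, against 6567, 5977 and 3784 in untreated ones. In BMDM it had 19374 and 18813 after LPS, against 41.9 and 40.2 without it, or 90 reads over both untreated libraries. No 2 groups overlapped, and the order of the origins turned round with treatment. Cfb rose by 0.96 ± 0.18 in resident cells (1.95-fold, adjusted p = 0.00846) and by 8.83 ± 0.22 in BMDM (454-fold, adjusted p = 5.11e-10). Resident cells were higher without LPS by 6.98 ± 0.20 (126-fold, adjusted p = 1.36e-09) and lower with it by 0.89 on the log2 scale (SE 0.20, adjusted p = 0.00275). With the resident libraries fitted alone the resident rise had the same size and was not called (adjusted p = 0.0642).

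Cfp encodes properdin, the one known positive regulator of the alternative pathway. It had 21652, 15788 and 15897 normalized reads in LPS-treated and 29703, 22767 and 21362 in untreated resident cells. BMDM held 5500 and 4649 after LPS and 5431 and 5145 without it. All resident libraries lay above all BMDM libraries, and treatments overlapped within each origin. Cfp was higher in resident cells by 1.80 ± 0.17 with LPS (3.48-fold, adjusted p = 6.72e-06) and by 2.20 ± 0.17 without it (4.61-fold, adjusted p = 1.38e-06). The LPS change was -0.47 ± 0.15 in resident cells (adjusted p = 0.0741) and -0.06 ± 0.19 in BMDM (adjusted p = 0.807). Without the libraries with Y-linked reads the resident change of -0.48 was called (adjusted p = 0.00633). Neutrophils also make properdin, and the neutrophil list moved with origin as given above. Its part in the Cfp difference was not tested.

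**Figure D3:**
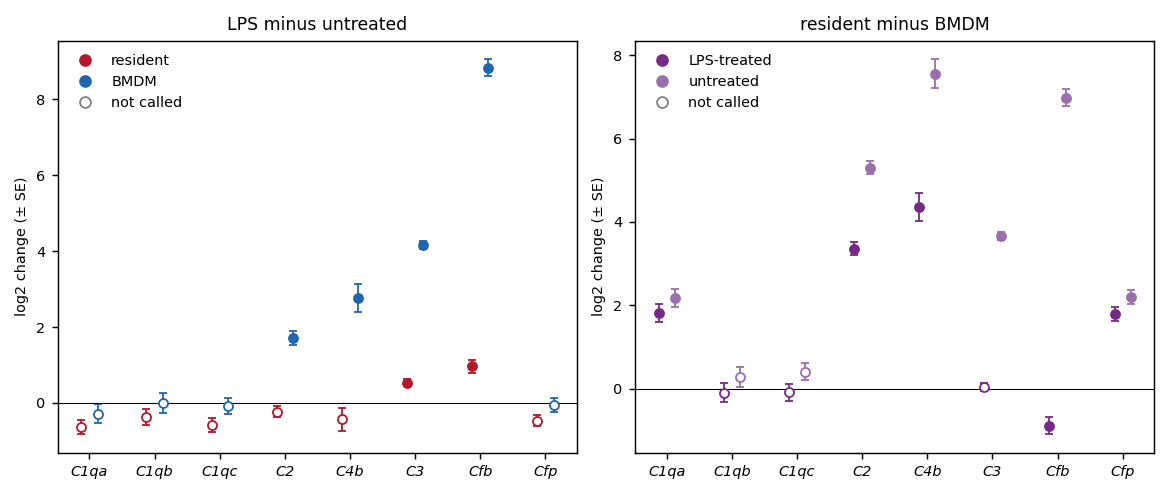
Log2 changes with SE from limma for the 8 genes, LPS minus untreated (left; resident red, BMDM blue) and resident minus BMDM (right; LPS-treated dark, untreated light), filled where the adjusted p is under 0.05. On the left, C2, C4b, C3 and Cfb rise in BMDM by 1.71 to 8.83, while the called resident changes are 0.53 for C3 and 0.96 for Cfb.

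A gene was called at an adjusted p under 0.05 over the 13755 genes tested. LPS called 2 of the 8 complement genes in resident cells, both higher (C3 and Cfb), where 12.9% of all genes tested were called, 7.36% higher and 5.57% lower. In BMDM it called 4 of 8, all higher (C2, C4b, C3 and Cfb), where 57.8% of all genes were called, 28.3% higher and 29.5% lower. LPS-treated and untreated libraries did not overlap for 5 of the 8 genes in resident cells and for 6 of 8 in BMDM, against 27.1% and 84.4% of all genes. The count in resident cells depended on the fit. It was 6 without the libraries with Y-linked reads, where C1qa, C1qb, C1qc and Cfp were called lower, beside 2840 of 13755 genes called. It was 0 with the resident libraries fitted alone, beside 529 of 13755 genes called. In BMDM the count was 8 with quantile normalization or equal totals, as C1qa, C1qb, C1qc and Cfp were then called lower. Of all genes 7730 and 10006 were then called, 40% and 21.7% of these higher.

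Between origins, 6 of 8 were called higher in untreated resident cells than in untreated BMDM (C1qa, C2, C4b, C3, Cfb and Cfp), beside 71.9% of all genes called, 39.2% higher and 32.6% lower. With LPS, 5 of 8 were called, with C1qa, C2, C4b and Cfp higher and Cfb lower in resident cells, beside 71.3% of all genes called, 36.7% higher and 34.5% lower. The origins did not overlap for 5 of 8 genes with LPS and 7 of 8 without it, against 82.4% and 82.7% of all genes. In 3 of these 4 comparisons the called shares among all genes are so large that a call by itself says little about a member. The median log2 change of the 8 genes was -0.41 for LPS in resident cells, 0.86 for LPS in BMDM, 0.92 between origins with LPS and 2.94 without it, beside medians over all genes of 0, -0.04, 0.03 and 0.08.

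The LPS responses themselves differed between origins for 4 of the 8 genes, each lower in resident cells, where 41.8% of all genes were called, 22.8% in that direction and 19.0% in the other. The difference of log2 changes, resident minus BMDM, was -7.86 ± 0.29 for Cfb (adjusted p = 2.16e-08), -3.63 ± 0.14 for C3 (3.02e-08), -3.20 ± 0.48 for C4b (0.000391) and -1.93 ± 0.23 for C2 (7.43e-05). For these 4 genes, untreated resident libraries already lay well above untreated BMDM. It was -0.36 ± 0.31 for C1qa, -0.38 ± 0.33 for C1qb, -0.50 ± 0.28 for C1qc and -0.41 ± 0.24 for Cfp, none of them called in the fit of 4 group means. With quantile normalization these turned to 0.10, 0.15, 0.07 and 0.13. With a term for Y-linked reads all 4 were called at their values above, and without the libraries that held such reads C1qa, C1qc and Cfp were called (-0.36, -0.44 and -0.41). The differences use the same libraries as the comparisons above.

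Levels of different genes can be compared only per transcript length. In normalized reads per kb, LPS-treated resident cells held C1qb at 27397 ± 6417, C1qa at 23962 ± 6136, C1qc at 15630 ± 2801, Cfp at 10867 ± 2051, C3 at 4907 ± 399, Cfb at 3799 ± 566, C2 at 338.0 ± 15.01 and C4b at 86.7 ± 4.73 (SD, n = 3). Untreated resident cells kept this order but for C1qa, at 37199 ± 9474, and C1qb, at 36006 ± 10666, which overlapped, as they did after LPS. In LPS-treated BMDM the order was C1qb at 28904 ± 651, C1qc at 16454 ± 156, Cfb at 6976 ± 145, C1qa at 6654 ± 136, C3 at 4765 ± 169, Cfp at 3102 ± 368, C2 at 32.4 ± 0.915 and C4b at 4.05 ± 0.324 (SD, n = 2). In untreated BMDM the order was C1qb at 28818 ± 23.3, C1qc at 17552 ± 893, C1qa at 8068 ± 63.2, Cfp at 3232 ± 124, C3 at 267 ± 21.1, Cfb at 15.01 ± 0.444 and C2 at 9.85 ± 2.71, with C4b at the floor in 1 library. Thus C1qa or C1qb had the highest level in each of the 4 groups, and Cfb stood above C1qa in LPS-treated BMDM alone.

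Another 44 genes of the pathway were listed, of which 28 were in the table and tested. In resident cells LPS called none of the 28 with limma, beside 12.9% of all genes, 4 had an unadjusted p under 0.05, and voom on the recovered reads called 1, higher. With a term for Y-linked reads 1 was called higher and 4 lower, beside 3449 of 13755 genes called, 51% of them higher. In BMDM LPS called 5 higher and 3 lower, beside 57.8% of all genes called, 28.3% higher and 29.5% lower. The count of lower ones was 11 with equal totals and 9 with quantile normalization, beside 10006 and 7730 of 13755 genes called. Of all genes called, 21.7% and 40% were then higher. Among the pathway genes called higher in the main fit were the proteases that C1q activates. C1ra, the C1r protease, had 1516 and 1472 normalized reads in LPS-treated BMDM, against 91.2 and 90.5 in untreated BMDM, and rose by 4.03 ± 0.12 (adjusted p = 1.35e-09). C1s1, the C1s protease, had 75.1 and 69.1, against 3.65 and the floor of 1, and rose by 4.58 ± 0.42 (adjusted p = 5.38e-06). Both were thus low before LPS in BMDM. Resident cells held 350.0, 328 and 321 reads of C1ra with LPS and 342, 316 and 287 without it. Of C1s1 they held only 42.5, 31.1 and 39.3 with LPS and 20.5, 34.2 and 25.7 without it.

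Clu, which encodes clusterin, a fluid-phase inhibitor of the terminal complex, had 43.2 and 51.5 in LPS-treated and 16.4 and 16.5 in untreated BMDM (1.47 ± 0.42, adjusted p = 0.0129), a call lost in 5 of 21 alternatives, among them leaving out either untreated BMDM library or BMDM LPS replicate 2. Receptors for the C5a fragment fell in BMDM. C5ar2 had 71.0 and 111 after LPS, against 500.5 and 446 without it (-2.40 ± 0.34, adjusted p = 0.000169). C5ar1 had 6959 and 7586, against 13611 and 12452 (-0.84 ± 0.14, adjusted p = 0.000513). C1qbp, a mitochondrial protein that was first isolated as a binder of C1q, changed by -0.51 ± 0.09 (adjusted p = 0.000547).

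Differences of LPS responses were called for 7 of the 28 genes, 3 higher and 4 lower in resident cells, beside 41.8% of all genes called, 19.0% higher and 22.8% lower. With equal totals or quantile normalization 7 were higher, beside 7405 and 5426 of 13755 genes called, 75.2% and 56.9% of them higher. The differences were 1.71 ± 0.44 for C5ar2, 1.00 ± 0.18 for C5ar1 and 0.45 ± 0.11 for C1qbp, against -3.94 ± 0.16 for C1ra and -4.09 ± 0.54 for C1s1. Serping1, the inhibitor of C1r and C1s, had a difference of -2.23 ± 0.49 (adjusted p = 0.00422), which rests on 11.3 and 10.8 normalized reads in LPS-treated BMDM beside the floor in both untreated BMDM libraries and was not called with a pseudocount of 10. Calls were also lost for C5ar2 with quantile normalization and without BMDM LPS replicate 1, and for C1qbp without BMDM untreated replicate 2 or LPS replicate 2.

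**Figure D4:**
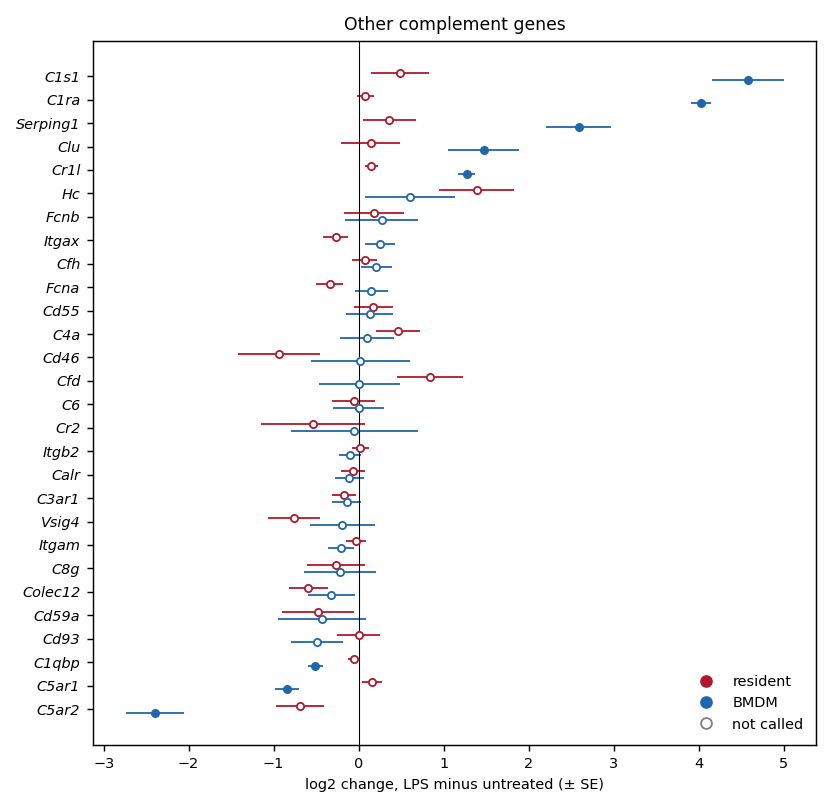
Log2 change with LPS (points, with SE as lines) for the 28 other complement genes in resident cells (red) and BMDM (blue), filled where the adjusted p is under 0.05. In BMDM, C1s1 and C1ra lie farthest to the right at 4.58 and 4.03 and C5ar2 farthest to the left at -2.40, and no resident point is filled.

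Between origins the 28 genes split, with 12 called higher and 12 lower in untreated resident cells and 10 higher and 12 lower with LPS. Of all genes, 71.9% were called between untreated origins (39.2% higher, 32.6% lower) and 71.3% between LPS-treated ones (36.7% higher, 34.5% lower). Ficolins, which start the lectin pathway, were at the top. Fcna averaged 41432 ± 5513 normalized reads in LPS-treated resident cells against 342 ± 55.2 in LPS-treated BMDM, and 52880 ± 11300 in untreated resident cells against 306 ± 8.47 in untreated BMDM, with differences of 6.92 ± 0.17 and 7.41 ± 0.17. Fcnb read 1602 to 2335 in LPS-treated and 1076 to 2556 in untreated resident cells and at most 3.08 in any BMDM library, so its size depends on the pseudocount. Fcnb is also a product of maturing neutrophils, and its part beside the neutrophil values above was not tested.

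Regulators and receptors followed. Clu was 6.64 ± 0.39 higher in untreated resident cells, where replicates 1, 2 and 3 read 1061, 2657 and 1845. The summed megakaryocyte list stood at 12761, 41523 and 28838 in the same libraries, and its part in the Clu difference was not tested. Cd55, which takes the C3-cleaving enzymes apart at the cell surface, was 5.52 ± 0.26 higher in resident cells under LPS. Among receptors, the directions were mixed. Vsig4, a C3b receptor, was higher in resident cells with LPS (2.90 ± 0.34) and without it (3.47 ± 0.34). Cr2 was called higher in untreated resident cells (1.98 ± 0.69, adjusted p = 0.0244), on low values of 8.55 to 11.6 against 1.82 and 1.83 in BMDM. That call was lost in 6 alternatives, and the sign turned in 1 more. C3ar1, the C3a receptor, had 1894, 1448 and 1507 normalized reads in LPS-treated resident cells against 23202 and 23144 in LPS-treated BMDM, and 2272, 1631 and 1577 in untreated resident cells against 25920 and 25078 in untreated BMDM. It was lower in resident cells by 3.85 with LPS and by 3.82 without it on the log2 scale (adjusted p = 1.99e-08 and 1.26e-08). C5ar1 changed by -2.85 ± 0.13 between untreated origins, and Itgax, a chain of complement receptor CR4, by -3.14 ± 0.16 with LPS and -2.62 ± 0.16 without it. C1ra was lower in resident cells with LPS, at -2.16 ± 0.11.

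Profiles most like each gene were sought among 10331 genes with a mean of at least 100, by Pearson's r of log2 values over the 10 libraries, which share group and depth. The mean C1q profile was nearest to Trf (transferrin, r = 0.985), Map1lc3a (0.981), Map2k2 (0.979), Cdc34 (0.977) and Ctsf (0.975). C2 was nearest to Mthfd2, A4galt and Sema7a (0.997 each), and C4b to Rtn2, Mybpc3 (0.995 each) and Dcbld1 (0.994). C3 was nearest to Bcl2a1a, Trim12a and Ifit3b (0.996 each), and Cfb to Il15ra, Rtp4 and Ifit1 (0.999 each), of which Ifit3b, Rtp4 and Ifit1 are known as interferon-induced genes. Cfp was nearest to Cd209g (0.998), Vsig4 and Cd5l (0.996 each), and Vsig4 encodes a C3b receptor of tissue macrophages. With 4 groups that differ this much, high values of r are common, and they are given as descriptions.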

How the data were processed

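The deposited signal values are normalized reads per gene: 1 read is worth a fixed amount in each library, from 0.892 to 1.36, and the authors set a floor of 1. This was tested on the table: above the floor and under 1000 reads, 100% of values were whole multiples within a tolerance of 0.02. HISAT 0.1.7 and mm10 are named in the submitters' processing notes, and the sources used here do not name the trimming, annotation or counting program. Values were fitted as log2(value + 1) with limma 3.58.1 in R 4.3.3: 4 group means, all 10 libraries, a variance trend, 2-sided p-values adjusted by Benjamini and Hochberg within each of 5 contrasts. Tests covered the 13755 genes that reached 10 in 2 or more libraries and left out 54, none a complement gene. Fold changes are on the log2(value + 1) scale and understate changes of low genes. Ratios were tested by exact permutation in Python 3.11.15. The fit was tested on simulated data. The 8 genes, gene lists and motifs were chosen with earlier results of these data known. Named pathway genes are the 3 called rises and falls of largest size per contrast whose higher group averages at least 20. C4a, Vsig4 and Cr2 were named outside that rule. Gene positions come from GENCODE vM21 and promoter windows from RefSeq. Read counts carry counting error, and shared or overlapping genes (C4b, C4a, C2, Cfb) add to it.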

Additional observations from a re-analysis of the deposited data

Results flagged for a closer look

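For 4 genes the LPS response differed between origins by the limma test of the difference itself (resident minus BMDM, log2 scale). That test called 41.8% of all genes, 22.8% lower and 19.0% higher in resident cells. The difference was -1.93 for C2, -3.63 for C3, -3.20 for C4b and -7.86 for Cfb. It kept its direction and its call in all 20 alternatives run for each of these genes. For C4b it was -3.70 with a pseudocount of 0.1 and -1.75 with one of 10.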

How the results depend on the processing

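Over the 40 changes of the 8 genes, 832 alternative values were computed, of which 764 kept direction and side of the threshold, 47 passed it newly, 3 no longer did and 18 changed sign. The number of complement genes called for LPS in resident cells was 2, and became 5 with quantile normalization, 5 with equal totals, 0 with the resident libraries fitted alone, 6 with a term for Y-linked reads, 6 without those libraries, and 2 to 5 with each replicate left out (4 without resident untreated replicate 3, 5 without resident LPS replicate 1). For LPS in BMDM 4 became 8 with either rescaling. The added genes were called lower, beside 10006 (equal totals) and 7730 (quantile) of 13755 genes called. For the difference of responses 4 became 8 with the Y-linked term and 7 without those libraries, beside 7224 and 6790 genes called. The log2 difference between origins in the C1qa to C1qb ratio was 1.91 without the libraries with Y-linked reads (exact permutation p = 0.0556, the smallest the remaining libraries allow). The log2 LPS difference of summed C1q in BMDM was 0.46 per Csf1r read, against -0.15 per read of the macrophage identity list. Signs turned as follows. For LPS in BMDM, C1qb was -0.91 (quantile), -0.61 (equal totals) and -0.02 to 0.03 with 1 replicate left out (lowest without BMDM LPS replicate 1), and Cfp -0.19 to 0.06 (highest without BMDM LPS replicate 2). Between LPS-treated origins, C1qb was 0.21 (quantile), 0.22 (equal totals) and -0.29 to 0.02 with 1 replicate left out (highest without resident LPS replicate 3), C1qc 0.25 and 0.24 (quantile, equal totals), and C3 -0.03 without the Y-linked libraries and -0.03 without resident LPS replicate 1. For the difference of responses, C1qa, C1qb, C1qc and Cfp were 0.10, 0.15, 0.07 and 0.13 (quantile), and C1qa, C1qb and Cfp 0.13, 0.11 and 0.08 (equal totals). With equal totals the median change of all genes was -0.12 for LPS in resident cells (0 before), -0.64 in BMDM (-0.04 before), 0.35 between LPS-treated origins (0.03 before), -0.08 between untreated origins (0.08 before) and 0.48 for the difference (0.02 before). The share of called genes that were higher was then 27.1%, not 56.9%, for LPS in resident cells, 21.7%, not 49%, in BMDM, 68.2%, not 51.5%, between LPS-treated origins and 75.2%, not 45.5%, for the difference. With quantile normalization it was 41.5%, not 54.6%, between untreated origins and 56.9% for the difference. Calls over all genes ranged from 529 to 3449 (1779 in the main fit) for LPS in resident cells. The causes were not tested. edgeR and DESeq2 were not run. No paired analysis was run. The titles number the libraries consecutively through all groups, so that the labels give no groups the same replicate numbers. In values, resident replicates of the 2 treatments resembled each other. The summed megakaryocyte list stood at 12761, 41523 and 28838 in untreated and 17033, 44954 and 28170 in LPS-treated replicates 1, 2 and 3. Whether these share animals is not given, and the fit of 4 group means takes no account of it. BMDM values rest on 2 libraries a group, and C4b in untreated BMDM on 5 reads with the floor counted as 0.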
